A study of Danio rerio with 12 samples.

Results

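The proximal tubule is the first segment of the nephron after the glomerulus, and it takes back most of what the glomerulus filters. A group of 55 genes of proximal tubule uptake, secretion and metabolism was followed in adult zebrafish kidneys: endocytic receptors, solute carriers, their scaffold proteins, and surface and metabolic enzymes. Genes were found by zebrafish symbol or former symbol in a table of 30238 Entrez gene IDs, and 54 of the 55 had a row. Those listed as slc26a6l and gpt2l were found through former symbols and are now named slc26a6l1 and gpt, and no row was matched to slc26a6. Of the 54, 53 passed the filter on low counts and 1, slc22a7a, did not.

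Total kidney RNA was sequenced on the BGISEQ-500 platform in 12 samples of adult fish, 3 of the wild-type genotype (WT) and 9 from heterozygotes for a knockout of pdx1 (PDX1mut in the labels, pdx1+/- here). The gene encodes a homeobox factor of pancreas development. The allele, the strain, sex, exact age, family and batch, and whether a sample is a single fish, are not given in the sources used here, so the p-values measure only the spread between these samples, which may be technical. No treatment is named for either genotype, and the fish kidney also holds the blood-forming tissue, so these are whole-organ levels, in which fewer tubule cells and less RNA per tubule cell cannot be told apart. Libraries held 16041392 to 19483852 estimated counts. The heterozygous label was checked on pdx1 itself, which was near the limit of detection. Its estimated counts were 14, 10 and 5.60 in wild type, and between 0 and 10.4 in heterozygous libraries, 5 of 9 of which had 0. As CPM (counts scaled to library size, with no correction for length) these were 0.563 ± 0.258 (SD, n = 3) against 0.166 ± 0.227 (SD, n = 9; exact two-sided permutation test, p = 0.0273). Genotype ranges overlapped, and values this low rest on few counts. Heterozygous replicates 8 and 4 had the most pdx1 counts of that genotype, 10.4 and 8. They also had the highest levels of the pancreatic enzyme gene prss1, 50.0 and 15.8 TPM, while wild type did not exceed 1.45 TPM. The part of pancreatic transcripts in the pdx1 values was not tested.

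In the vertebrate proximal tubule, the receptors megalin and cubilin bind filtered proteins and vitamins at the apical brush border and carry them into endosomes. Sodium-coupled carriers on the same membrane take up phosphate, amino acids and organic acids, driven by the sodium pump on the basal side, while organic anion and cation carriers secrete toxins and drugs into the urine. The roles named below are those known from mammals.

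Proximal tubule genes had levels from 0.0534 (slc22a7a) to 651 (slc22a6l) mean TPM (the deposited unit, scaled for transcript length and depth, so that genes can be compared). Mean TPM over the 12 samples was at least 100 for 18 genes, from 10 to 100 for 26, from 1 to 10 for 6 and below 1 for 4. The median of these mean levels was 45.1 TPM, against 6.09 TPM over all 23732 tested genes. Together the 54 genes made up 0.368% to 0.71% of the listed TPM of a sample. All 10 genes fixed as proximal tubule markers, which are themselves among these genes, were detected in every sample, with a summed level of 1597 to 2685 TPM in wild type and 990.3 to 1907 TPM in heterozygous kidneys. These sums lean on slc22a6l, which alone had 1561 of the 2685 TPM (wild-type replicate 1) and 885 of the 1907 TPM (heterozygous replicate 7). Of the 6 enterocyte markers, a cell type that shares several of these carriers, 3 had a mean under 1 TPM. Among them fabp6 was listed at 0 in every sample and fabp2 did not exceed 0.528 TPM. Others of that list were detected in every sample, vil1 at 7.01 to 25.5 TPM and cdx1b at 8.30 to 12.4 TPM, and the list summed to 18.4 to 38.5 TPM.

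The 8 genes with the highest mean levels were a mixture of carriers, a scaffold partner and enzymes. Highest was slc22a6l, an organic anion carrier related to OAT1, with a level of 651 ± 341 TPM (mean ± SD, n = 12), which ranked 151 among all gene IDs. Next came slc20a1a, a sodium-phosphate cotransporter gene, at 358 ± 107 TPM, and slc47a2.1, a multidrug and toxin extrusion (MATE) carrier gene, at 338 ± 68.9 TPM. The gap of slc20a1a to slc47a2.1 was smaller than the SD of either. The membrane protein gene pdzk1ip1, whose product binds the scaffold PDZK1, had 275 ± 48.2 TPM, and slc5a12, a sodium-lactate cotransporter gene, had 259 ± 70.8 TPM. The enzyme genes gpt2l (alanine aminotransferase), nit2 (omega-amidase) and acy3.2 (an aminoacylase) stood at 237 ± 68.9 TPM, 236 ± 69.3 TPM and 219 ± 66.2 TPM, and differed among themselves by less than their SD. Sample values of pdzk1ip1 were 263, 287 and 376 TPM in wild type and lay between 202 and 322, with a median of 256 TPM, in heterozygous kidneys. Those of gpt2l were 355, 258 and 166 TPM in wild type and lay between 133 and 347, with a median of 219 TPM, in heterozygous kidneys. For both, the genotypes overlapped. Levels of nit2 were 339, 157 and 298 TPM in wild type and lay between 110.1 and 304, with a median of 251 TPM, in heterozygous kidneys, with wild-type replicate 1 the highest and heterozygous replicate 2 the lowest. Levels of acy3.2 were 177, 360.3 and 209.6 TPM in wild type and lay between 95.3 and 281, with a median of 216 TPM, in heterozygous kidneys, with wild-type replicate 2 the highest.

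**Figure D1:**
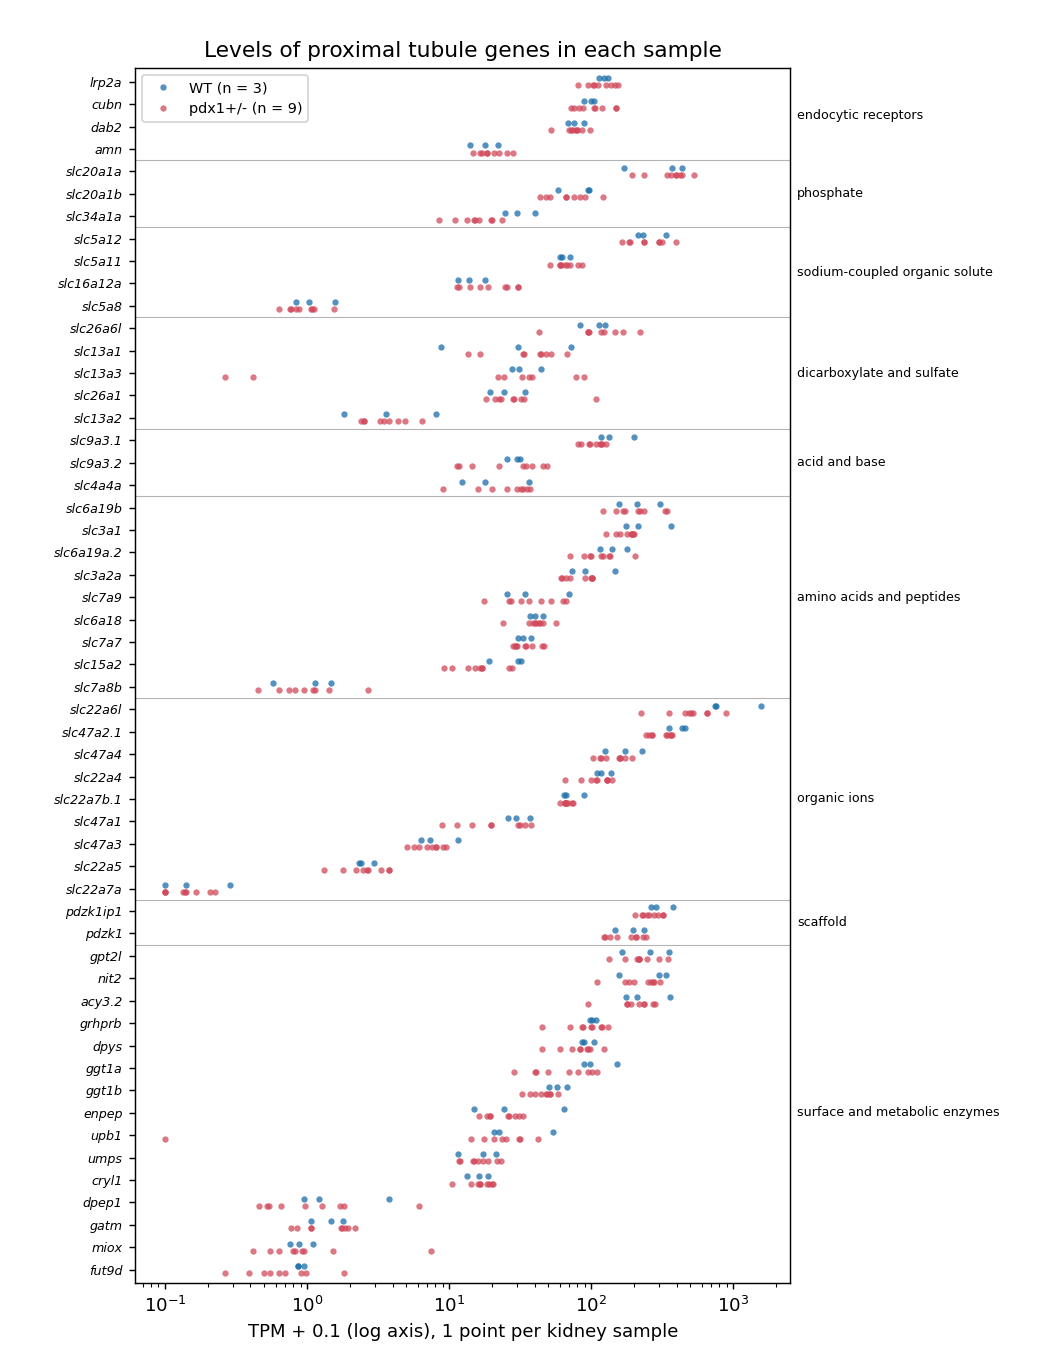
Level of each of the 54 genes (rows, ordered by mean within each role) as TPM + 0.1 on a log axis, with 1 point per kidney sample, wild type in blue and pdx1+/- in red. Points of both genotypes lie over one another in most rows, while slc34a1a is the row in which all 9 red points lie left of the 3 blue points, and slc13a3, upb1, slc26a1 and miox have single points far from the rest.

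The lowest levels were those of several enzymes and minor carriers. The enzyme genes miox (myo-inositol oxygenase), gatm (the first step of creatine synthesis) and dpep1 (a surface dipeptidase) had mean levels of 1.30, 1.36 and 1.57 TPM. Mean levels of the carrier genes slc5a8 (a sodium-monocarboxylate cotransporter) and slc7a8b (an exchanger of neutral amino acids), and of the fucosyltransferase gene fut9d, were 0.912, 0.997 and 0.684 TPM. For slc22a7a, an organic anion carrier gene, estimated counts ran from 0 to 5 per library, with levels of 0, 0.0396 and 0.188 TPM in wild type and 0 to 0.127 TPM in heterozygous kidneys. At this depth the genotypes could not be told apart by it (exact permutation test on CPM, two-sided, all 220 splits, p = 0.509).

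Between genotypes, no gene of the group passed the test. Of the 53 tested, 0 had an adjusted p under 0.05 in the edgeR quasi-likelihood test (Benjamini-Hochberg adjustment over all tested genes), where 0.00421% of all 23732 tested genes did. In DESeq2 the count was also 0, against 0.257% of all genes. At an unadjusted p under 0.05 there were 5 in edgeR and 5 in DESeq2, where 5.68% and 6.39% of all tested genes did. Fold changes below are log2 fold changes of heterozygous against wild-type kidneys, with an approximate SE. They were negative for 32 genes and positive for 21, with a median of -0.07, beside a median of 0.01 over all tested genes, of which 48.3% were negative. The count was smaller without some single kidneys. The number of negative fold changes was 26 without wild-type replicate 1, 26 without wild-type replicate 2 and 27 without heterozygous replicate 2, with medians of 0.00, 0.01 and -0.00.

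**Figure D2:**
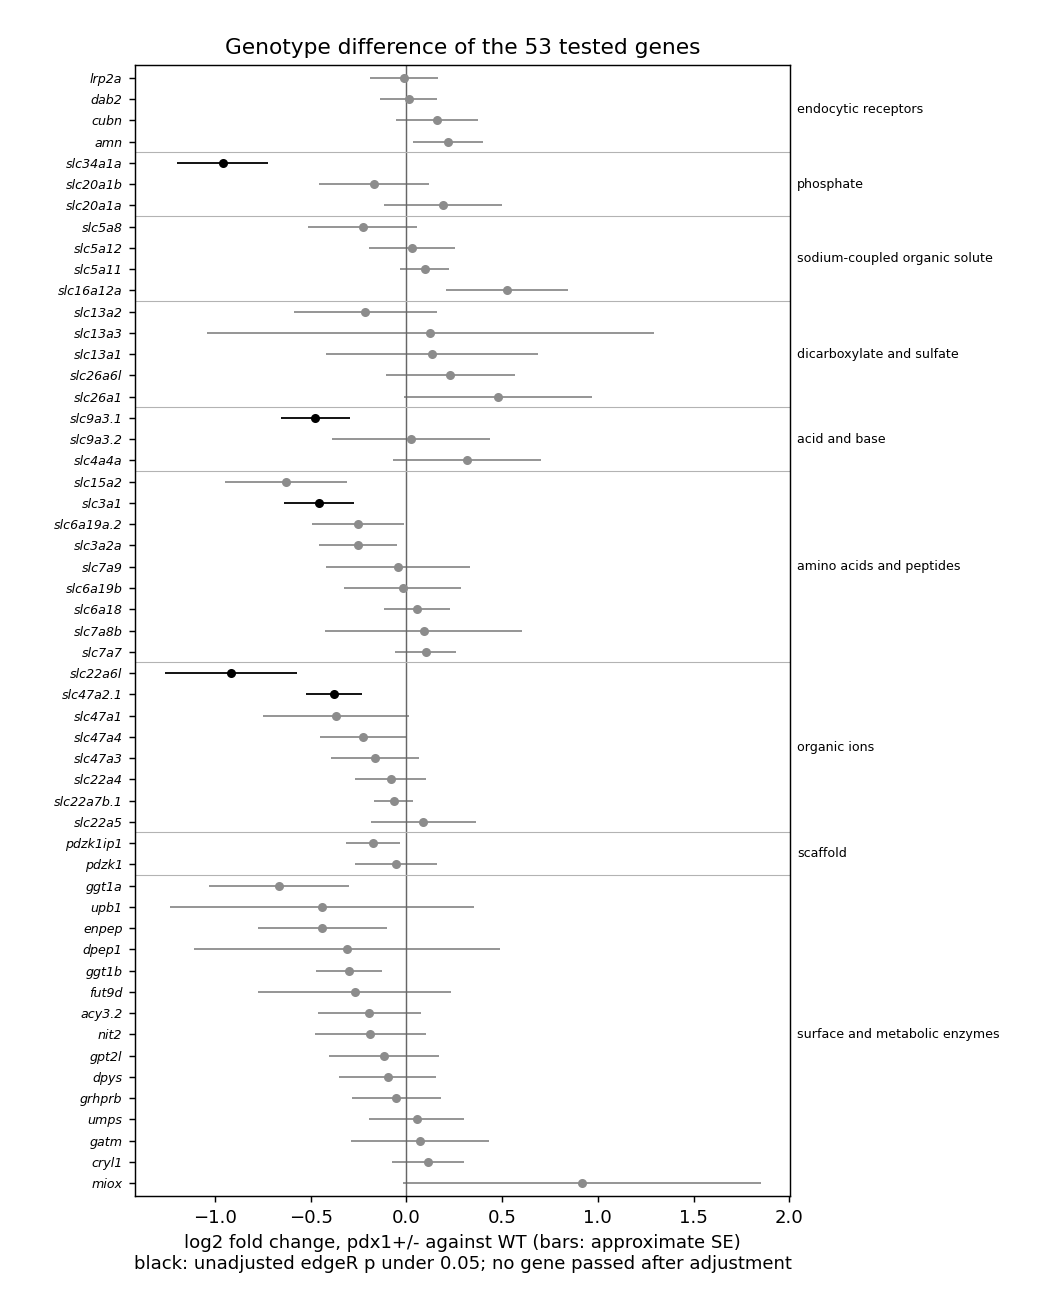
Log2 fold change of pdx1+/- against wild-type kidneys (x axis; bars are approximate SE) for the 53 tested genes, grouped by role, with black marking an unadjusted edgeR p under 0.05. The 5 black points, slc34a1a, slc9a3.1, slc3a1, slc22a6l and slc47a2.1, are all negative, and 0 of the 53 passed after adjustment.

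Endocytic receptor genes differed between genotypes by less than their spread between kidneys. Transcripts of lrp2a (megalin) stood at 130.4, 114 and 123 TPM in wild-type replicates 1 to 3, and between 80.3 and 155, with a median of 113 TPM, in the 9 heterozygous samples. Levels of cubn (cubilin) were 88.6, 104 and 99 TPM in wild type and lay between 72.6 and 149.5, with a median of 104 TPM, in heterozygous kidneys. The heterozygous range enclosed every wild-type value for both receptors. Their log2 fold changes were -0.01 ± 0.18 and 0.16 ± 0.21 (edgeR, adjusted p = 0.999 and 0.997). The gene of amnionless, amn, which brings cubilin to the membrane, had the lowest level of the receptor complex, at 14 to 28.2 TPM. The adaptor gene dab2 ranged over 51.8 to 97.9 TPM, with a fold change of 0.01 ± 0.15 (edgeR, adjusted p = 0.999). The same kidneys stood at the ends of the range for both receptors. Heterozygous replicates 6 and 9 were the highest, with 155 and 148 TPM for lrp2a and 149 and 149.5 TPM for cubn, and heterozygous replicate 2 was the lowest in both.

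The wider machinery of receptor-mediated endocytosis was counted in a separate list of 40 genes, of which 39 were tested. In edgeR 0 passed, 2 had an unadjusted p under 0.05 (beside 5.68% of all tested genes), 19 fold changes were negative and 20 positive, and the median was 0.01. Lowest in p was cltcb, a clathrin heavy chain gene, with 30.4 ± 4.13 TPM (SD, n = 3) in wild type, 24.2 ± 1.41 TPM (SD, n = 9) in heterozygous kidneys and a fold change of -0.27 ± 0.09 (edgeR, adjusted p = 0.753). The endosomal chloride-proton exchanger gene clcn5b had 19.3 ± 1.62 and 21 ± 2.59 TPM. The second megalin gene, lrp2b, did not exceed 1.0 TPM in any sample while lrp2a did not go below 80.3 TPM.

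Phosphate uptake held the gene with the smallest p of the group. The gene slc34a1a encodes a sodium-phosphate cotransporter of the brush border (NaPi-IIa in mammals). Its levels were 30.2, 24.6 and 39.9 TPM in wild-type replicates 1 to 3 and 16, 8.37, 15.1, 15, 19.9, 23.4, 10.9, 13.4 and 19.7 TPM in heterozygous replicates 1 to 9. Every heterozygous kidney was below every wild-type kidney, which was so for 1 of the 53 genes in CPM and for 0.699% of all tested genes. The reverse order was found for 0 of the 53, beside 0.704% of all tested genes. The highest heterozygous value, 23.4 TPM, lay close under the lowest wild-type value, 24.6 TPM. Its fold change of -0.96 ± 0.24 did not pass over all genes (edgeR, adjusted p = 0.538; DESeq2, adjusted p = 0.0747). Over 20 alternatives, the fold change ran from -1.29 to -0.78 and the adjusted p from 0.0747 (DESeq2) to 0.9996 (edgeR without wild-type replicate 3). The value of -1.29 came from a fit with the replicate number as a block, which rests on replicates 1 to 3 of either genotype. Counts on the single gene annotated as rRNA also separated the genotypes. They made up 4.10% to 5.64% in wild type and 5.71% to 9.10% in heterozygous libraries, and their part in the slc34a1a result was not tested.

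The other phosphate carriers did not share this pattern of values. Levels of slc20a1a were 438, 372 and 169.6 TPM in wild type and lay between 195 and 526, with a median of 398 TPM, in heterozygous kidneys, so wild-type replicate 3 was the lowest of all 12. Those of its paralog slc20a1b were 96.4, 58.6 and 94.6 TPM in wild type and lay between 43.6 and 121, with a median of 66.4 TPM, in heterozygous kidneys. Fold changes were 0.19 ± 0.31 and -0.17 ± 0.29 (edgeR, adjusted p = 0.999 for either gene). Of the summed TPM of these 3 genes, slc20a1a held 55.8% to 88% per sample, slc20a1b 9.61% to 37.2% and slc34a1a 2.40% to 13.1%. The share of slc34a1a was 7.96% ± 4.47 (SD, n = 3) in wild type, with wild-type replicate 3 the highest, and 3.43% ± 0.724 (SD, n = 9) in heterozygous kidneys.

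Among organic anion and cation carriers 7 of 8 tested fold changes were negative, with a median of -0.20, where 48.3% of all tested genes were negative. No such count is given without wild-type replicate 1, which was the highest of all samples for slc22a6l. The values of slc22a6l were 1561, 758 and 740.3 TPM in wild-type replicates 1 to 3 and 486, 225, 458, 508, 659, 519, 885, 658 and 353 TPM in heterozygous replicates 1 to 9. Wild-type replicate 1 had about the level of the other wild-type kidneys added together, and heterozygous replicate 7 was above wild-type replicates 2 and 3, so the genotypes overlapped. With all samples its fold change was -0.92 ± 0.34 (edgeR, adjusted p = 0.811), and without wild-type replicate 1 it was -0.41. This gene weighed on the summed level of all 54 genes, of which it made up 6.49% to 23.4%. That sum was 5971 ± 701 TPM (SD, n = 3) in wild type against 4933 ± 703 TPM (SD, n = 9) in heterozygous kidneys, a ratio of 0.826. Without slc22a6l the ratio was 0.89, and with CPM in place of TPM it was 0.879. With both changes it was 0.941, from 11200 ± 1133 CPM (SD, n = 3) in wild type and 10536 ± 1494 CPM (SD, n = 9) in heterozygous kidneys, a gap smaller than either SD. The genes were chosen with earlier results known, so no p is given for these sums.

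The 4 MATE genes, which encode exporters of organic cations, had unequal levels. In every sample slc47a2.1 was the highest, with 54.6% to 72% of the summed TPM of the 4, followed by slc47a4 with 20.3% to 39.5%. The paralogs slc47a1 and slc47a3 held 1.72% to 7.41% and 0.983% to 1.92%. In the RefSeq gene order slc47a1 lies next to slc47a2.1 and slc47a3 next to slc47a4, with 0 coding genes between, so each neighbouring pair held 1 high and 1 low gene. Levels of slc47a2.1 were 462, 434 and 352 TPM in wild type and lay between 245 and 369.6, with a median of 335 TPM, in heterozygous kidneys. Of these, the lowest wild-type value was below the highest heterozygous ones, and the fold change was -0.38 ± 0.15 (edgeR, adjusted p = 0.815), or -0.25 without wild-type replicate 1. Levels of slc47a1 were 25.9, 37.1 and 29.3 TPM in wild type and lay between 8.82 and 37.6, with a median of 19.7 TPM, in heterozygous kidneys. Its lowest values were 8.82 and 11.3 TPM in heterozygous replicates 4 and 6, while its neighbour slc47a2.1 had 335 and 340.1 TPM there. The exporter gene slc47a4 had 227, 126 and 172 TPM in wild type and between 103 and 195, with a median of 158 TPM, in heterozygous kidneys, and slc47a3 had 11.5, 6.21 and 7.27 and between 4.98 and 9.49, with a median of 7.50 TPM. In both, wild-type replicate 1 was the highest and heterozygous replicate 9 the lowest. The organic anion carrier gene slc22a7b.1 had the smallest ratio of highest to lowest TPM of all 54 genes, 1.47, with 64.2, 88.8 and 66.1 TPM in wild type and between 60.5 and 74.6, with a median of 66.1 TPM, in heterozygous kidneys. The carnitine and cation carrier genes slc22a4 and slc22a5, close paralogs, stood at 65.8 to 139 TPM and 1.22 to 3.71 TPM.

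Acid and base carriers were led by slc9a3.1, a gene of the sodium-hydrogen exchanger NHE3. Its levels were 200.4, 133 and 117 TPM in wild type and lay between 80.1 and 127, with a median of 109 TPM, in heterozygous kidneys, with wild-type replicate 1 above all other samples. The fold change was -0.48 ± 0.18 (edgeR, adjusted p = 0.809) and was -0.15 without wild-type replicate 1. The adjacent copy slc9a3.2 had 29.8, 31.5 and 25.3 TPM in wild type and 38.3, 11.3, 45.7, 11.7, 14.4, 48.6, 33.1, 34.9 and 22.4 TPM in heterozygous replicates 1 to 9. Heterozygous replicates 2, 4 and 5 lay below the other 9 kidneys, none of them above 14.4 TPM. The share of slc9a3.2 in the summed TPM of the pair ran from 8.71% to 33%, while its fold change was 0.03 ± 0.41 (edgeR, adjusted p = 0.999). The sodium-bicarbonate cotransporter gene slc4a4a had 12.3, 36.2 and 17.9 TPM in wild type and between 8.92 and 36.8, with a median of 30.2 TPM, in heterozygous kidneys, with a fold change of 0.32 ± 0.39 (edgeR, adjusted p = 0.995).

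Amino acid and peptide carriers split into 6 negative and 3 positive fold changes, where 48.3% of all tested genes were negative. The cystine transporter is built from the subunit genes slc3a1 and slc7a9, and the exporter of cationic amino acids from slc3a2 and slc7a7. Levels of slc3a1 were 214, 364 and 175 TPM in wild type and lay between 128 and 199, with a median of 191 TPM, in heterozygous kidneys, with wild-type replicate 2 far above the rest. Its fold change of -0.46 ± 0.18 (edgeR, adjusted p = 0.833) was -0.11 without that kidney. The partner gene slc7a9 stood lower, at 34.1, 70.1 and 25.3 TPM in wild type and between 17.5 and 66.2, with a median of 36.6 TPM, in heterozygous kidneys. Genotypes overlapped in slc7a9, and wild-type replicate 2 was the highest for it too. The heavy subunit gene slc3a2a had 73.6, 148 and 89.9 TPM in wild type and between 61.7 and 102, with a median of 91 TPM, in heterozygous kidneys, again with wild-type replicate 2 the highest. Its light partner slc7a7 had 32.9, 37.6 and 30.6 TPM in wild type and between 28 and 46.2, with a median of 33.9 TPM, in heterozygous kidneys. Levels of slc7a8b were 1.04, 0.478 and 1.37 TPM in wild type and lay between 0.351 and 2.58, with a median of 0.858 TPM, in heterozygous kidneys. Of the summed TPM of both heavy subunit genes, slc3a1 held 63.9% to 74.4%. Fold changes of slc7a9, slc7a7 and slc3a2a were -0.05 ± 0.38, 0.10 ± 0.16 and -0.25 ± 0.21 (edgeR, adjusted p from 0.97 to 0.999).

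The 3 genes of the neutral amino acid carrier family differed in level. Values of slc6a19b were 304, 158 and 212 TPM in wild type and lay between 121 and 340.1, with a median of 215 TPM, in heterozygous kidneys, and those of slc6a19a.2 were 179, 115 and 139.7 TPM in wild type and lay between 70.4 and 205, with a median of 117 TPM, in heterozygous kidneys. In all 12 samples slc6a19b was the higher of the pair, with 55.2% to 72.6% of their summed TPM. The third gene, slc6a18, which has 1 coding gene between it and slc6a19a.2 in the RefSeq order, ranged over 23.8 to 57 TPM. For the peptide carrier gene slc15a2, levels were 30.6, 19.1 and 32 TPM in wild type and 9.16, 17.1, 10.4, 16.4, 27.7, 15, 16.9, 26.2 and 13.6 TPM in heterozygous replicates 1 to 9. Heterozygous replicates 5 and 8 lay within the wild-type range and the others below it, and the fold change was -0.63 ± 0.32 (edgeR, adjusted p = 0.905).

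Carriers of dicarboxylates and sulfate differed widely from kidney to kidney. The basolateral dicarboxylate carrier gene slc13a3 had 30.8, 44.3 and 27.6 TPM in wild-type replicates 1 to 3 and 36.2, 0.163, 32.5, 78.2, 22.2, 38.3, 0.32, 24.1 and 88.8 TPM in heterozygous replicates 1 to 9. Heterozygous replicates 2 and 7 had almost none, with estimated counts of 7.14 and 15.8, while the other 10 kidneys had 22.2 to 88.8 TPM. In CPM, the lowest of these 10 was 68.1 times the higher of the pair. Of all 23732 tested genes, 1 had more than a 5-fold gap between the same pair of kidneys and each of the other 10 at 1 CPM or more, and that gene was slc13a3, a search chosen after its values were seen. Coding genes beside slc13a3 in the RefSeq order gave no such gap. The second gene on either side, LOC100535806 and ccser1, had 18.2 and 24.1 CPM in heterozygous replicate 2 and 23 and 20.4 CPM in replicate 7. These values were within their ranges in the other kidneys, 15.3 to 24.3 and 16 to 24.5 CPM. The adjacent genes mc3r and ocstamp were at or under 0.114 CPM throughout. In all 12 libraries the slc13a3 count was fractional, as kallisto gives where reads are shared with other transcripts, and whether the 2 values near 0 are failed estimates cannot be told from these values.

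Other genes of these carriers also had single kidneys apart. The sulfate-oxalate exchanger gene slc26a1 had 109 TPM in heterozygous replicate 2 and 18.2 to 34.4 TPM in the other 11 kidneys, of which wild type had 19.3, 34.4 and 24.2 TPM. In that library 36 tested genes, slc26a1 included, were more than 3-fold above all other kidneys at 1 CPM or more. Heterozygous replicate 2 was thus highest for slc26a1 and lowest for slc13a3. The sodium-sulfate cotransporter gene slc13a1 had 30.4, 72.1 and 8.67 TPM in wild type and 33, 43.4, 33.4, 44.4, 16.4, 48.4, 67.7, 13.5 and 52 TPM in heterozygous replicates 1 to 9, so wild-type replicates 2 and 3 were the highest and the lowest of all. Levels of the apical dicarboxylate carrier gene slc13a2 were lower, at 1.72, 7.97 and 3.5 TPM in wild type and between 2.31 and 6.31, with a median of 3.39 TPM, in heterozygous kidneys. The anion exchanger gene slc26a6l had 113, 124 and 84 TPM in wild type and between 42.8 and 219.7, with a median of 117 TPM, in heterozygous kidneys, with its lowest value in heterozygous replicate 2 and its highest in replicate 6. Fold changes of the 5 tested genes with these roles lay between -0.21 and 0.48, and the approximate SE of slc13a3 was 1.17, the widest of all 53.

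**Figure D3:**
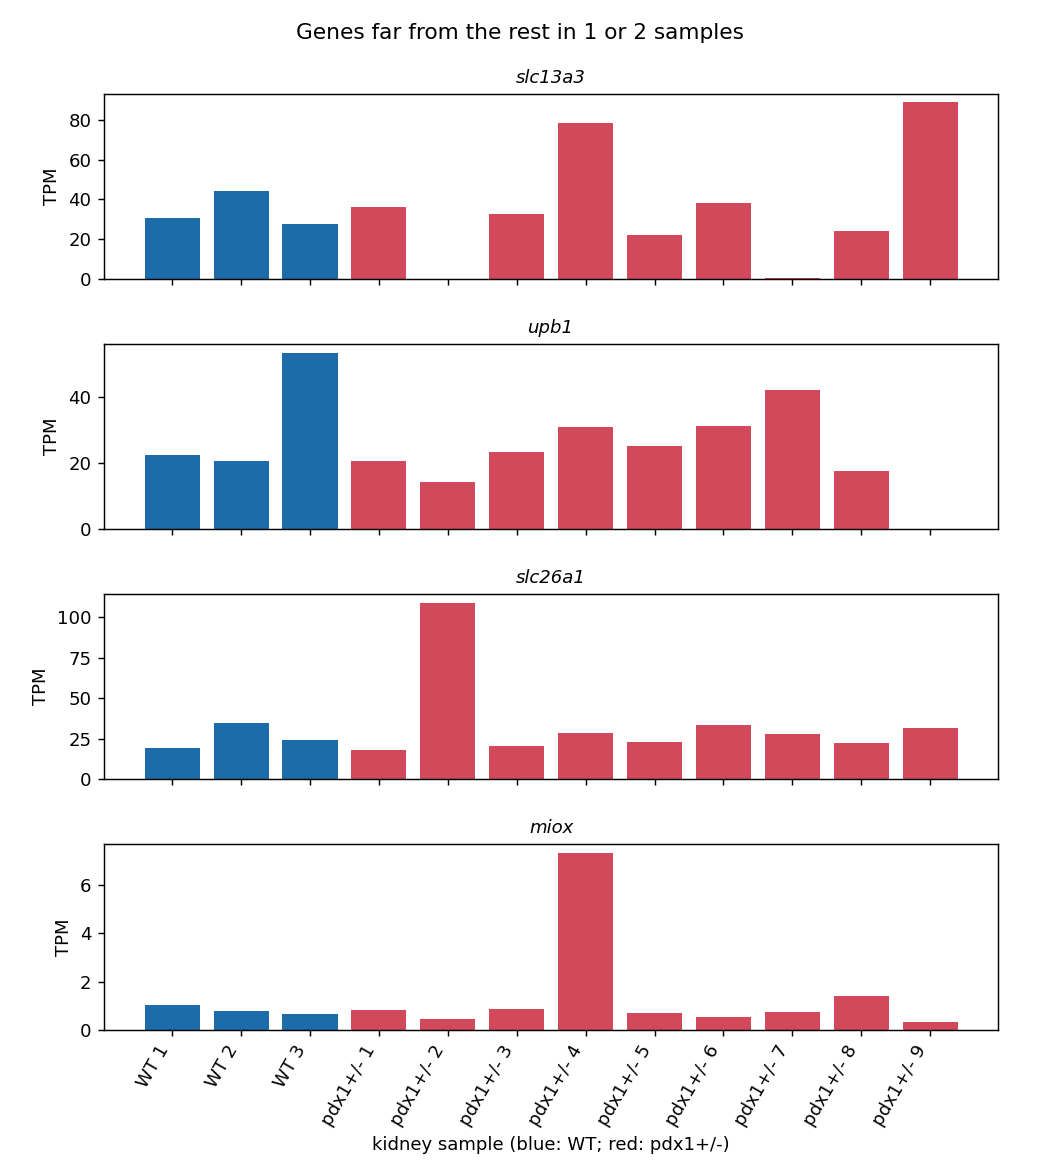
TPM of slc13a3, upb1, slc26a1 and miox in each of the 12 kidneys (bars from 0; blue, wild type; red, pdx1+/-). Bars are missing or nearly so for slc13a3 in pdx1+/- replicates 2 and 7 and for upb1 in replicate 9, and 1 bar stands out for slc26a1 in replicate 2 and for miox in replicate 4.

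Among carriers of lactate, inositol and related solutes, 3 fold changes were positive and 1 negative, where 48.3% of all tested genes were negative. The sodium-lactate cotransporter gene slc5a12 had 215, 335 and 231 TPM in wild type and between 164 and 398, with a median of 238 TPM, in heterozygous kidneys. Levels of slc5a11, a sodium-inositol cotransporter gene, ranged over 51.3 to 85.5 TPM, and those of slc5a8 over 0.537 to 1.48 TPM. The creatine and monocarboxylate carrier gene slc16a12a ranged over 11.2 to 30.7 TPM, with the only positive fold change above 0.5 among the carriers, 0.53 ± 0.32 (edgeR, adjusted p = 0.942). The scaffold gene pdzk1, whose product holds several of these carriers at the brush border, ranged over 124 to 242 TPM, and pdzk1ip1 over 202 to 376 TPM.

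Enzyme genes of the tubule surface and cytoplasm gave 11 negative and 4 positive fold changes, where 48.3% of all tested genes were negative. No such count is given with single kidneys left out. The glutathione-cleaving gamma-glutamyltransferase gene ggt1a had 98.2, 88.8 and 153 TPM in wild type and 101, 109.6, 49.3, 40.9, 69.3, 40.0, 94.5, 80.5 and 28.6 TPM in heterozygous replicates 1 to 9. Its paralog ggt1b had 57.7, 50.4 and 67.2 TPM in wild type and lay between 32.4 and 58.6, with a median of 48.4 TPM, in heterozygous kidneys. Genotypes overlapped for both, with fold changes of -0.67 ± 0.37 and -0.30 ± 0.17 (edgeR, adjusted p = 0.913 and 0.929). Without wild-type replicate 3 that of ggt1a was -0.43. The share of ggt1a in the summed TPM of the pair ran from 35.9% in heterozygous replicate 9 to 77.2% in replicate 2, so the order of the paralogs was not the same in all kidneys. The surface peptidase gene enpep (aminopeptidase A) ranged over 14.9 to 64.3 TPM, with 14.9, 64.3 and 24.2 TPM in wild type and between 16 and 33, with a median of 25.7 TPM, in heterozygous kidneys. Levels of dpep1 ran over 0.363 to 6.04 TPM, with heterozygous replicate 2 the highest.

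Pyrimidine breakdown uses dpys and then upb1 (beta-ureidopropionase). Levels of upb1 were 22.4, 20.5 and 53.5 TPM in wild type and 20.6, 14.3, 23.5, 30.8, 25.2, 31.3, 42.1 and 17.5 TPM in heterozygous replicates 1 to 8, and it was listed at 0 in replicate 9. An exact 0 in estimated counts can be a failed estimate, and 6 tested genes, upb1 included, had a gap of this kind in that library. In the same library gucd1, the next coding gene on 1 side in the RefSeq order, had 12.5 CPM, against 9.81 to 13.3 CPM elsewhere. On the other side c8h22orf15, low in all kidneys, had 0.172 CPM, against 0.26 to 0.877 CPM elsewhere. The gene of the preceding enzyme, dpys, ranged over 45.1 to 123 TPM, and umps, of pyrimidine synthesis, over 11.4 to 23.3 TPM.

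Levels of miox were 7.35 TPM in heterozygous replicate 4 and 0.319 to 1.42 TPM in the other 11 kidneys, and 50 tested genes had a gap of more than 3-fold above the rest in that library. The same library had the highest sum of the 6 hepatocyte markers, 1225 TPM, where the other 11 had 107 to 242 TPM. Of these markers the transferrin gene tfa had 275 TPM in that library and at most 7.19 TPM elsewhere, and the part of these transcripts in the miox value was not tested. Ranges of the remaining enzyme genes were 133 to 355 TPM for gpt2l, 110.1 to 339 TPM for nit2, 95.3 to 360.3 TPM for acy3.2, 45.2 to 131 TPM for grhprb (glyoxylate reductase), 10.4 to 20.4 TPM for cryl1 (gulonate dehydrogenase), 0.668 to 2.07 TPM for gatm and 0.163 to 1.71 TPM for fut9d. The lowest adjusted p of these 7 was 0.999 in edgeR.

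The median CV of TPM over the 12 samples was 29.9% for the 53 tested genes and 23.9% for all tested genes. The highest sample exceeded the lowest by more than 3-fold in 25 of 54 genes, upb1 and slc22a7a with values of 0 included, and by less than 2-fold in 9. Among genes with at least 1 TPM in every sample, the widest ratios were those of slc13a1 (8.32), slc22a6l (6.95), slc26a1 (5.99), ggt1a (5.33), slc26a6l (5.14) and slc34a1a (4.77). Heterozygous replicate 2 was the lowest of the 12 kidneys in CPM for 23 of the 53 genes (43.4%), while it was the lowest for 16.2% of all tested genes. It was the highest for 3 of the 53 (5.66%), beside 15.5% of all tested genes, so it stood at either end for many genes outside the group. Its summed level of the 54 genes was 3459.6 TPM, and the other 11 kidneys had 4503 to 6682 TPM. In the same library the summed distal tubule markers (623 TPM) and podocyte markers (132 TPM) lay within the range of the others, 391 to 740.2 and 103 to 139.8 TPM. Of 11 lists of other cell types, 1 was the lowest in that library, the enterocyte list at 18.4 TPM (others at least 23.9 TPM). Within it vil1 had 7.01 TPM there and 13.3 to 25.5 TPM in the other kidneys. The markers cdx1b (9.93 TPM) and slc15a1b (1.41 TPM) lay within their ranges in the others, so the low sum was not shared across the list. The summed endocytic pathway genes were also the lowest in that library, at 2071 TPM (others at least 2256 TPM). A large part of that sum was ctsla, with 588 TPM in that library and 760 to 1835 TPM in the others. The sum therefore does not speak for the list as a whole. The part of these values in the low levels of that kidney was not tested. Heterozygous replicate 9 was the highest for 10 genes (18.9%, beside 6.22% of all tested genes) and the lowest for 6 (11.3%, beside 5.65%). Heterozygous replicate 6 was the highest for 8 (15.1%, beside 6.13%) and the lowest for 0 (beside 6.70%). Wild-type replicate 2 was also the highest for 8 genes (15.1%), beside 8.69% of all tested genes.

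**Figure D4:**
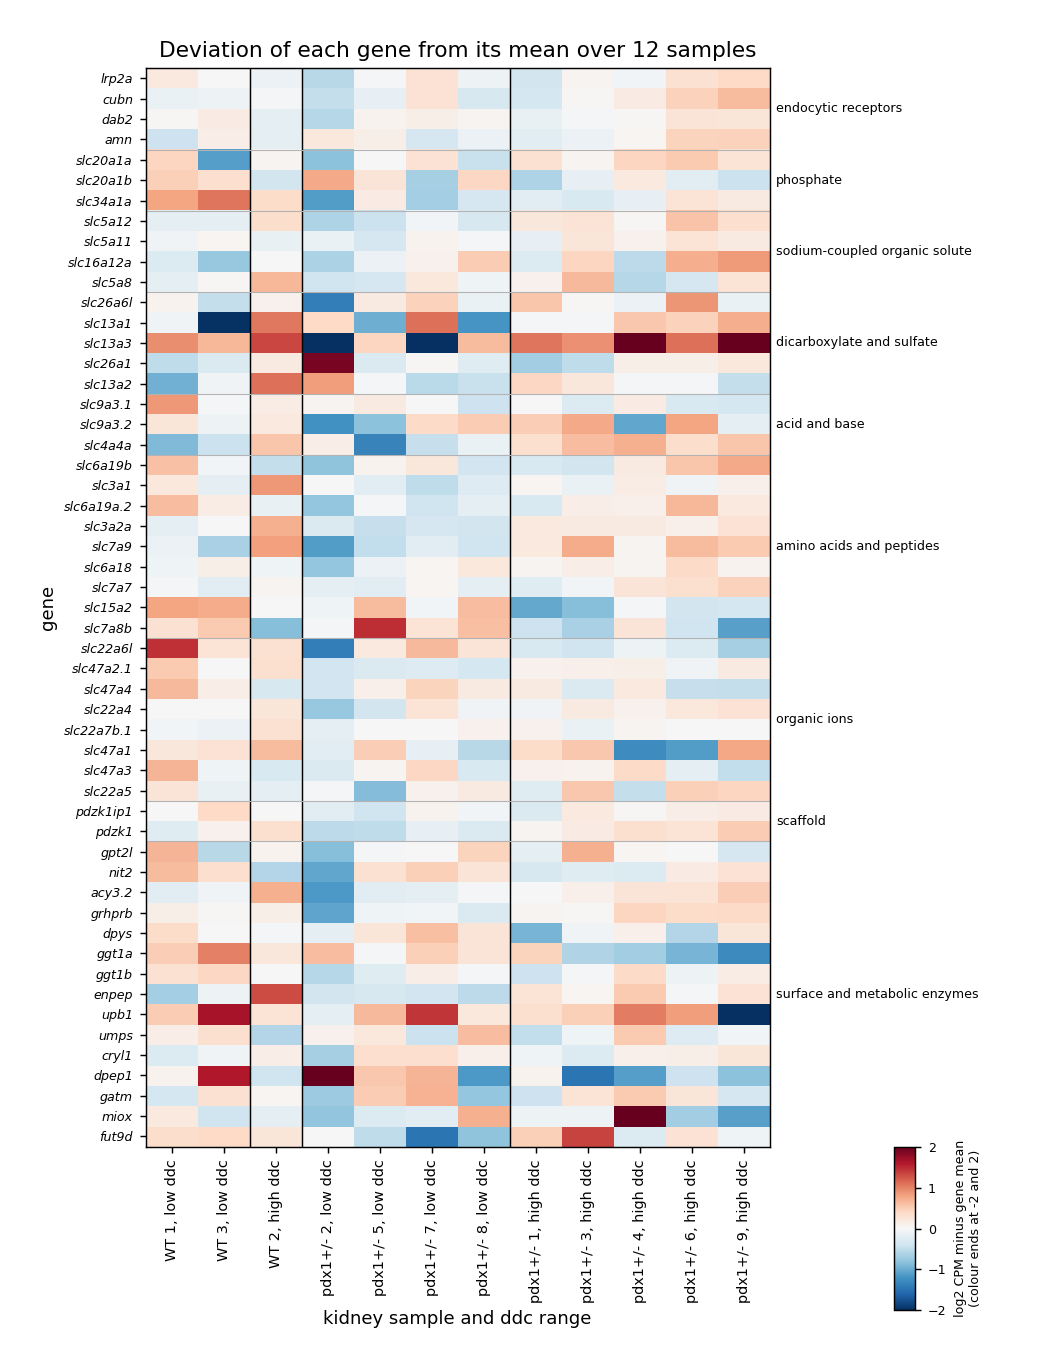
Deviation of log2 CPM (prior 0.10) from each gene's mean over 12 samples, for the 53 tested genes (rows, by role) and the kidneys (columns, by genotype and ddc range); colours end at -2 and 2. The column of pdx1+/- replicate 2 holds the lowest value of 23 rows and the highest of 3 (slc26a1, slc20a1b and dpep1). Over all tested genes that sample was the lowest for 16.2% and the highest for 15.5%.

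The gene ddc, which encodes aromatic amino acid decarboxylase, an enzyme that mammalian proximal tubule also makes, had levels in 2 separate ranges within both genotypes. At a limit of 1000 CPM, 6 kidneys were high (4332 to 6469 CPM), namely wild-type replicate 2 with 6391 CPM and heterozygous replicates 1, 3, 4, 6 and 9. The other 6, wild-type replicates 1 and 3 with 135 and 197 CPM and heterozygous replicates 2, 5, 7 and 8, had 111 to 219.7 CPM. These ranges were defined from the data and are not groups of the study, so values are given without a test. The genes were also chosen with earlier results of these data known, so shares beside all tested genes are description only. In CPM, 6 of the 53 genes were higher in every high-ddc kidney than in any low-ddc kidney (11.3%), and 0 were lower in every one. Over all tested genes the shares were 1.9% and 0.754%. The mean log2 CPM was higher in the high-ddc kidneys for 37 of 53 genes (69.8%), beside 49.5% of all tested genes. The low-ddc kidneys include heterozygous replicate 2, the lowest kidney for 23 of the 53, and no such count is given without it. Summed proximal tubule markers overlapped, at 1485 to 1862 TPM with high and 990.3 to 2685 TPM with low ddc. The value of 2685 TPM was that of wild-type replicate 1, where slc22a6l alone had 1561 TPM.

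The 6 genes were carriers of base, lactate and amino acids and 2 enzymes. Levels of slc4a4a, the bicarbonate carrier, were 36.2 TPM in wild-type replicate 2 and 30.2, 36.8, 35.1, 31.9 and 32.9 TPM in heterozygous replicates 1, 3, 4, 6 and 9. With low ddc they were 12.3 and 17.9 TPM in wild-type replicates 1 and 3 and 25.7, 8.92, 16 and 19.8 TPM in heterozygous replicates 2, 5, 7 and 8. The 6 genes were picked for not overlapping over all kidneys, so the same order within each genotype follows from that choice. Wild type had only 1 high-ddc kidney. The cystine transporter subunit gene slc7a9 had 36.6 to 70.1 TPM in the high-ddc kidneys and 17.5 to 34.1 TPM in the low-ddc kidneys. For slc3a2a, the heavy subunit gene, levels were 91 to 148 TPM in the high-ddc kidneys and 61.7 to 89.9 TPM in the low-ddc kidneys, and the heterozygous high-ddc kidneys lay close together, at 102, 102, 91, 99.8 and 101 TPM. The lactate carrier gene slc5a12 had 238 to 398 TPM in the high-ddc kidneys and 164 to 234 TPM in the low-ddc kidneys. Of the enzymes, enpep had 25.7 to 64.3 TPM in the high-ddc kidneys and 14.9 to 24.2 TPM in the low-ddc kidneys, and acy3.2 had 216 to 360.3 TPM in the high-ddc kidneys and 95.3 to 209.6 TPM in the low-ddc kidneys. In TPM slc13a3 was a further gene without overlap, with 32.5 to 88.8 TPM in the high-ddc kidneys and 0.163 to 30.8 TPM in the low-ddc kidneys, though its lowest value with high ddc was close to the highest with low ddc.

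**Figure D5:**
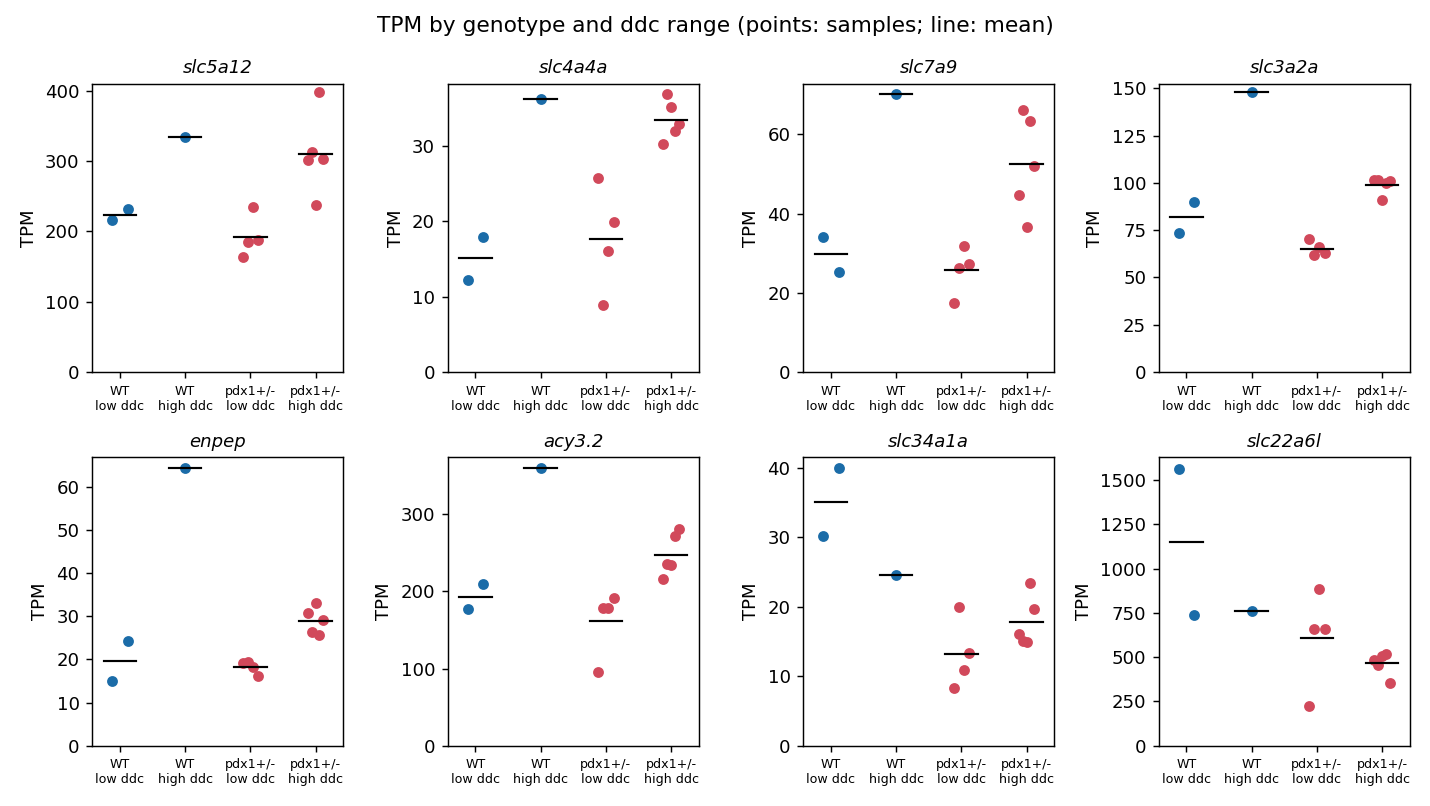
TPM in each kidney (points; the line is the mean) by genotype and ddc range, for the 6 genes that separate the ddc ranges and for slc34a1a and slc22a6l. In the first 6 panels every high-ddc point lies above every low-ddc point. For slc34a1a the pdx1+/- points lie between 8.37 and 23.4 TPM and the wild-type points between 24.6 and 39.9 TPM over all kidneys.

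Genes in the list of nephron and proximal tubule regulators, also chosen with earlier results known, were described by ddc range. Of 14 listed, 13 were tested, and 4 were higher in every high-ddc kidney than in any low-ddc kidney in CPM, namely hnf1bb, hnf4g, pax2a and irx3b, beside 1.9% of all tested genes (and 0.754% in the reverse order). The factor gene hnf1bb had 93.4 to 168 TPM with high and 35.2 to 70.7 TPM with low ddc. For irx3b, known in zebrafish for its part in distal nephron segments, the ranges were 99.8 to 199 and 24.5 to 58.6 TPM. The factor genes hnf4a and hnf1ba overlapped between the ranges. Between genotypes, 0 of the 13 passed in edgeR, 7 fold changes were negative and 6 positive, and 0 had an unadjusted p under 0.05. Of 11 lists of markers of other cell types, the summed level of 1 did not overlap between the ddc ranges. The 7 multiciliated tubule cell markers summed to 32.3 to 38.2 TPM with high and 23.2 to 32.3 TPM with low ddc, ranges that all but meet, and 0 of the 7 genes separated on its own. The 4 neutrophil markers, with overlapping ranges, summed to 1556 to 2574 and 1975 to 5440.0 TPM. The 6 exocrine pancreas markers, also overlapping, summed to 120 to 204 and 180 to 398 TPM, most of it cpa5 (118 to 203 and 179 to 397 TPM). The digestive enzyme gene prss1 of that list had 0.308 to 15.8 TPM with high and 0.565 to 50.0 TPM with low ddc. Its highest values were in heterozygous replicates 8 (50.0 TPM) and 4 (15.8 TPM), whereas cpa5 was highest in wild-type replicate 1. The sum is therefore that of cpa5 and does not speak for pancreatic transcripts. Distal tubule markers overlapped in the other order, at 532 to 740 and 391 to 623 TPM. The part of these lists in the values by ddc range was not tested.

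Levels of slc34a1a were also listed by ddc range, where the order of the genotypes follows from their not overlapping over all 12 kidneys. With low ddc the wild-type kidneys had 30.2 and 39.9 TPM and the 4 heterozygous kidneys 8.37 to 19.9 TPM. With high ddc the wild-type kidney had 24.6 TPM and the 5 heterozygous kidneys 15 to 23.4 TPM. A fit with the ddc range as a term gave it a fold change of -1.02 (edgeR, adjusted p = 0.377). For slc22a6l the same term gave -0.79 (edgeR, adjusted p = 0.747), with 1561 and 740.3 TPM in wild type and 225 to 885 TPM in heterozygous kidneys at low ddc, and 758 and 353 to 519 TPM at high ddc. Only 1 wild-type kidney had high ddc, so its range holds no replicate of wild type.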

How the data were processed

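The submitters' processing notes name Trim Galore 0.6.4, kallisto (given as 0.4.6) and build GRCz11. The annotation, settings, strand handling and how transcripts were summed to genes are not given in the sources used here. Each sample has deposited estimated counts, with totals that differ between samples as unnormalized counts do, and deposited TPM values, which correct for length and depth. RefSeq's GRCz12tu gene table gave symbols for 25812 of 30238 IDs and the order of neighbouring genes, and no coordinates.

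Counts were rounded, filtered with filterByExpr (minimum count 10) and scaled by TMM, and 23732 genes were compared with the edgeR 4.0.16 quasi-likelihood test (robust, no covariate, all 12 samples, R 4.3.3), with Benjamini-Hochberg adjustment and a threshold of 0.05. The SE is approximate, the fold change over the square root of F. CPM used TMM-scaled library sizes, so 3 counts are 0.156 to 0.184 CPM, counting error only. The step was also run on simulated counts with known changes. Its outcome is not given here, so no power is claimed for these group sizes. Alternatives were RLE scaling, no filter, DESeq2 1.42.0, limma 3.58.1 (voom, and trend on log2(TPM + 1) and log2(TPM + 0.1)), a replicate block, the ddc range as a term, and each sample left out in turn.

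Members and lists were chosen with earlier results of these data known. Values in wild-type samples, with those or the lowest, median and highest in heterozygous samples, are given for pdx1, ddc, the 8 genes with the highest mean TPM, the 8 with the smallest p, the 6 with the largest ratio of highest to lowest TPM among genes of at least 1 TPM throughout, those separating the ddc ranges, and paralogs. slc13a3, upb1, slc26a1 and miox were singled out after their values were seen. The others are given by range. The sum without slc22a6l and the search for genes with the gaps of slc13a3, upb1, slc26a1 and miox were added after the data were seen. Libraries of a group differed by a chi-square of at least 16.7 per gene, so none was counted as a duplicate. Because kallisto divides reads among similar transcripts, levels of paralogs are uncertain.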

Additional observations from a re-analysis of the deposited data

Results flagged for a closer look

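In 6 of 53 genes, 1 of the 9 heterozygous kidneys stood apart by Dixon's 95% criterion on TPM (a gap to its nearest neighbour of more than 0.493 of the range). The share was 11.3% of these genes and 8.91% of all 23732 tested genes, where chance flags about 1 in 20 groups of normal values. The anion exchanger gene slc26a1 had 109 TPM in replicate 2, with the other 8 between 18.2 and 33.4 TPM. The inositol oxygenase gene miox had 7.35 TPM in replicate 4, with the other 8 between 0.319 and 1.42 TPM. The dipeptidase gene dpep1 had 6.04 TPM in replicate 2, with the other 8 between 0.363 and 1.73 TPM. The amino acid exchanger gene slc7a8b had 2.58 TPM in replicate 5, with the other 8 between 0.351 and 1.33 TPM. The neutral amino acid carrier gene slc6a19a.2 had 205 TPM in replicate 6, with the other 8 between 70.4 and 137 TPM. The fucosyltransferase gene fut9d had 1.71 TPM in replicate 3, with the other 8 between 0.163 and 0.888 TPM. The near-absence of slc13a3 from a pair of kidneys is not found by this criterion, which looks at 1 kidney at a time, and the upb1 level of 0 in replicate 9 did not pass it.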

How the results depend on the processing

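The count of proximal tubule genes called was 0 under all 20 alternatives. Over all tested genes, the count of 1 became 61 with DESeq2, 3 with log2(TPM + 0.1), 3 with the ddc range as a term and 0 with the replicate block, and ran from 1 to 4 with 1 sample left out in turn (2 without heterozygous replicate 2, 4 without replicate 5). The cause was not tested. Sample numbers above 3 occur only among heterozygous samples, so fold changes with the replicate block rest on numbers 1 to 3 of either genotype. In that fit 43 of 53 fold changes were negative, with a median of -0.18. Deviations of same-numbered samples from their genotype means had correlations of -0.22, -0.16 and 0.10 for numbers 1 to 3. For each of these numbers the wild-type and heterozygous samples lay in opposite ddc ranges. Deviations from a mean of 3 wild-type samples also depend on one another. The correlations therefore cannot tell whether same-numbered samples shared a batch or family. The labels name no pairing, and the numbers are not taken as pairs. Over the other alternatives, the median ran from -0.16 to 0.01 and the number of negative fold changes from 26 to 40. Each of the 8 genes with the smallest p kept a negative fold change in all 20 alternatives. They were picked from the main fit and the alternatives reuse the same samples, so this is not separate support. The widest range was that of slc22a6l, from -1.38 (replicate block) to -0.41. The ratio of summed levels, 0.826 in TPM, was 0.879 in CPM and 0.941 in CPM without slc22a6l. The number of genes separating the ddc ranges, 6 in the main setting (11.3%, beside 1.9% of all tested genes), was 6 to 8 in 14 alternatives. Most of these leave out 1 kidney, which makes separation easier for any gene. Shares over all tested genes are not given for them, so the range does not show stability. With 3 wild-type samples, fold changes of genes that vary widely between samples are imprecise, and levels under about 1 TPM rest on few counts.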
